A study of Mus musculus with 37 samples.

Results

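The strains compared were BXD recombinant inbred mouse strains sorted by their own brown adipose tissue (BAT) score of *Nnt*. Each of the 35 BXDs was placed by the midpoint of *Nnt* in the parents C57BL/6J and DBA/2J, and 21 strains below it form the low side and 14 strains above it the high side, out of 37 arrays in the series. The members were thus chosen by measured *Nnt*, which is described here with no test. Every BXD is an inbred strain with C57BL/6J and DBA/2J ancestry. All cohorts were male, 29 weeks old, kept on a Harlan chow diet, fasted overnight and perfused. RNA of about 5 mice was pooled evenly for each strain and run on 1 Affymetrix mouse gene array, so no strain has a replicate and the spread is that between strains. Values below are scores, since the authors brought all arrays to the same mean (8) and standard deviation (SD, 2). Whether 1 score unit equals a doubling depends on the SD of the log2 data before that step, which is not given in the sources used here.

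*Nnt* encodes nicotinamide nucleotide transhydrogenase, an enzyme of the inner mitochondrial membrane that uses the proton gradient to make NADPH from NADH. Mitochondrial NADPH feeds the glutathione and thioredoxin systems that remove hydrogen peroxide, and BAT is rich in mitochondria. C57BL/6J mice are known for a deletion within *Nnt*.

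The *Nnt* scores did not separate the parents. The array had 1 *Nnt* probe set, which read 9.266 in C57BL/6J and 9.318 in DBA/2J, a difference of 0.052, and 84.1% of all probe sets had a larger absolute difference between the parents. Where its probes lie relative to the deletion is not given in the sources used here, so the probe set checks no allele. Of 3 other transcripts known to vary between these parents, 2 separated them clearly. *Mela* read 7.82 in C57BL/6J and 12.73 in DBA/2J, and *H2-Ea-ps* read 7.55 and 12.14. *Glo1*, at 10.28 and 10.964, had a gap of 0.684, within the 0.77 that bounds 95% of the parental differences. The sides are therefore named by the midpoint alone and are not read as parental alleles. Whether they match the alleles was not tested.

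Across the BXDs *Nnt* ranged from 8.36 in BXD95 to 10.12 in BXD83, far wider than the gap between the parents. The low side had a lowest, median and highest *Nnt* of 8.36, 8.99 and 9.27, and the high side had 9.30, 9.52 and 10.12. The values ran without a break across the midpoint of 9.292, with BXD51 just below it at 9.273 and BXD79 just above it at 9.295. The widest gap, 0.33, lay higher, between BXD62 at 9.53 and BXD50 at 9.86, and left 5 strains above it. In all 35 strains *Nnt* was above 7.94, the 95th percentile of the 1128 olfactory receptor probe sets, which served as background.

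**Figure D1:**
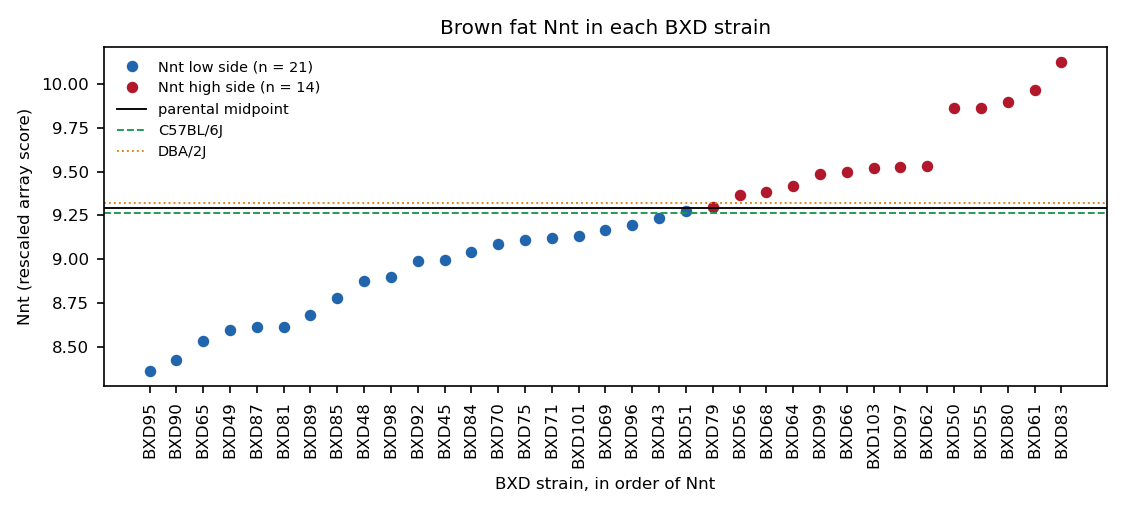
BAT *Nnt* score (rescaled, no unit) of each BXD strain in rising order, with points for 21 low and 14 high strains and lines for both parents and their midpoint. Strains range from 8.36 to 10.12 while the parental lines lie at 9.266 and 9.318.

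Transcripts of skeletal muscle moved with the split. The mean of 10 sarcomere and muscle enzyme genes had a lowest, median and highest score of 9.65, 12.07 and 13.18 on the low side and of 12.14, 12.59 and 13.47 on the high side. The low side thus reached far below the high side, and the upper parts of both overlapped. The 5 strains lowest in muscle, BXD65, BXD95, BXD85, BXD81 and BXD90, were all on the low side. Across the 35 strains *Nnt* and the muscle mean had a Pearson r of 0.699 and a Spearman rho of 0.642, as a description, and r was 0.635 without BXD65 and BXD95. Within the low side r was 0.759 (n = 21) and within the high side 0.181 (n = 14). In pooled tissue, fewer muscle fibres and less RNA per fibre cannot be told apart, and the part of muscle in the results below was not tested beyond the covariate fits given for some of them.

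**Figure D2:**
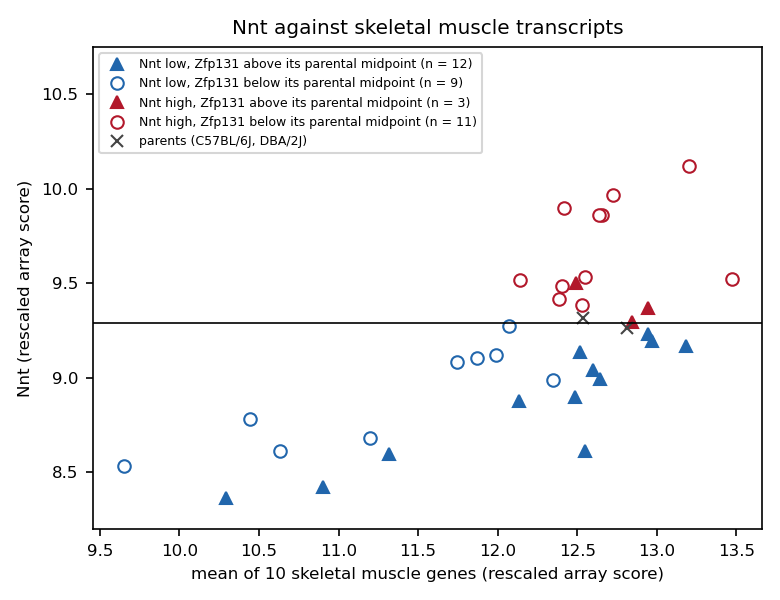
*Nnt* score against the mean score of 10 skeletal muscle genes in each BXD strain and both parents, with colour for the side, symbol for *Zfp131* above or below its own parental midpoint, and a line at the *Nnt* midpoint. All 5 strains with the lowest muscle mean are on the low side, with muscle means of 9.65 to 10.90, and *Zfp131* was picked after its values were seen.

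One array stood apart before any comparison. BXD70, on the low side, had a liver list mean of 12.26, while the next strain, BXD66, had 8.15 and the median strain 7.06, and DBA/2J had 10.29. All 10 liver genes were higher on the low side by mean, *Alb* being 0.583 higher, and none passed an unadjusted p of 0.05. Without BXD70, 8 of the 10 had a higher mean there, and the median difference of the list went from 0.268 to 0.0695. The size of the liver difference thus rested largely on that strain. The part of liver RNA in the DBA/2J value that sets the midpoint was not tested.

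Between the sides, no transcript passed limma at an adjusted p under 0.05. The fit covered 41154 probe sets (0 called, 0%), and the lowest adjusted p was 0.0686, shared by 10 probe sets. At an unadjusted p under 0.05, limma called 3334 probe sets (8.1%), of which 1513 (3.68%) were higher and 1821 (4.42%) lower on the low side. The methods' t-test called 3360 at the same unadjusted threshold and 1 after Benjamini-Hochberg adjustment. That one was *Npr2*, a natriuretic peptide receptor. The count of 0 rests on the strains and probe sets in the fit, since 9 of the 35 fits that left out a single strain called 1 to 14 probe sets, and a fit on the probe sets above background alone called 13.

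The transcripts nearest to the threshold were looked up after their values were seen. *Npr2* had a lowest, median and highest score of 9.758, 10.002 and 10.244 on the low side and of 10.018, 10.242 and 10.493 on the high side, a difference, low minus high, of -0.235 ± 0.0423 (standard error). *Mustn1*, a gene expressed in muscle and bone, gave 11.24, 11.77 and 12.36 on the low side and 11.75, 12.40 and 12.83 on the high side, a difference of -0.577 ± 0.106. *Cdo1*, which encodes the cysteine dioxygenase that commits cysteine to taurine and sulphate, ran the other way, with 14.09, 14.27 and 14.54 on the low side against 13.81, 14.10 and 14.24 on the high side. The ranges of the sides overlapped for all 3 genes, and limma gave each an adjusted p of 0.0686. *Psd3*, *Trim34b*, *Twf2*, *C4b*, *Tpm3* and *Rcan2* shared that adjusted p and were lower on the low side.

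Redox genes showed small differences in both directions, none past the adjusted threshold. All 110 genes of the 9 redox lists were found, 99 of them above background, and limma called 0 at an adjusted p under 0.05. At the unadjusted threshold limma called 21 of the 110 (19.1%, against 8.1% of all probe sets), 13 higher and 8 lower on the low side, and the t-test called 22. In a fit on the 19435 probe sets above background limma called 2264, 1004 higher and 1260 lower, a larger share than the 8.1%. The shares of all probe sets given beside this and other lists are thus low yardsticks for lists of bright genes. The median difference of the 110 genes was 0.0383, against 0.00576 over all probe sets. The counts in either direction depended on scaling, with 3 higher and 7 lower after quantile normalization, not all of them among the 21, and 7 and 7 after centring each array on its median. With the muscle mean as a covariate, 8 of the 110 passed the unadjusted threshold, where 5.4% of all probe sets did, and 3 of the 8 were not among the 21.

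Mitochondrial peroxide and thiol defence takes in the glutathione and thioredoxin systems that mitochondrial NADPH feeds. Its list also holds genes outside those systems, such as *Sod2*. Of its 15 genes 12 had a higher mean on the low side, and 5 passed the unadjusted p there, where 3.68% of all probe sets did, with none in the other direction. *Sod2*, the manganese superoxide dismutase of the mitochondrial matrix, had 14.24, 14.48 and 14.66 (lowest, median, highest) on the low side and 14.15, 14.36 and 14.48 on the high side, a difference of 0.148 ± 0.0402 (unadjusted p = 0.000757, adjusted p = 0.199). The highest high-side strain was below the low-side median for *Sod2*, while the lower parts of both sides overlapped. *Prdx3*, the matrix peroxiredoxin that reduces hydrogen peroxide, had 12.65, 12.98 and 13.43 on the low side and 12.60, 12.75 and 13.10 on the high side, so that most of the range was shared. *Txn2*, the mitochondrial thioredoxin, was 0.0862 higher on the low side, *Glrx5*, a glutaredoxin of iron-sulphur cluster assembly, 0.107 higher, and *Msrb2*, a methionine sulphoxide reductase, 0.135 higher. The number of genes in this list past the unadjusted p was 1 after quantile normalization and 3 after median centring. With the muscle covariate it was 3, where 5.4% of all probe sets passed.

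The other sources of mitochondrial NADPH differed little. Among 11 such genes *Glud1*, glutamate dehydrogenase, alone passed the unadjusted p, with a difference of 0.133 ± 0.0627 (unadjusted p = 0.0414, adjusted p = 0.585). With the muscle covariate its difference was 0.0688 (unadjusted p = 0.320), and 0 of the 11 passed in limma. In the cytosol *Pgd*, the second dehydrogenase of the pentose phosphate pathway, was 0.299 ± 0.135 higher on the low side, and was the only one of 11 cytosolic NADPH genes past that p. In either list 1 of 11 is 9.09%, near the 8.1% of all probe sets. By mean, 10 of 11 in either list were higher on the low side. The list median was 0.0374 for the mitochondrial genes and 0.0859 for the cytosolic ones. The difference of *Pgd* was 0.326 with the muscle covariate (unadjusted p = 0.041), and 0 of the 11 passed in limma after quantile normalization or median centring. The bright cytosolic isocitrate dehydrogenase *Idh1* differed by 0.0859 ± 0.0550.

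Glutathione and cytosolic antioxidant genes went both ways. *Chac1*, which breaks down glutathione, had 7.94, 9.17 and 10.55 on the low side and 8.79, 9.62 and 10.14 on the high side, a difference of -0.481 ± 0.175. *Slc25a39*, a carrier needed for glutathione in mitochondria, was 0.148 ± 0.0551 higher on the low side. *Glrx*, the cytosolic glutaredoxin, differed by -0.352 ± 0.134, and *Prdx1*, a cytosolic peroxiredoxin, by 0.0856 ± 0.0412. In the list of targets and regulators of NRF2, the transcription factor of the antioxidant response, *Nqo1* differed by -0.181 ± 0.0619 and was the only one of 14 past the unadjusted p. That is 7.14% of the list, near the 8.1% of all probe sets. *Nqo1* had a mean of 7.86, just under the background level, and *Nfe2l2*, which encodes NRF2 itself, differed by -0.00107 ± 0.0379. *Chac1* and *Nqo1* had an r of 0.840 and 0.797 with the muscle mean across the 35 strains. With that mean as a covariate the difference of *Chac1* was -0.0362 (unadjusted p = 0.767) and that of *Nqo1* -0.0425 (unadjusted p = 0.408).

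The genes of NAD metabolism and of the shuttles that pass NADH into mitochondria held the largest redox differences. Of 19 genes, 7 passed the unadjusted p, 4 higher and 3 lower on the low side, against 8.1% of all probe sets. After quantile normalization 0 were higher and 3 lower. The lower ones all belong to the malate-aspartate shuttle. *Slc25a12*, its aspartate-glutamate carrier of muscle and brain, had 9.57, 10.66 and 11.54 on the low side and 10.71, 11.09 and 11.88 on the high side, a difference of -0.614 ± 0.178. *Got2*, the mitochondrial aspartate aminotransferase, had 11.41, 12.31 and 13.10 on the low side and 12.36, 12.82 and 13.22 on the high side, a difference of -0.486 ± 0.134. For both, the low-side median lay below the lowest high-side strain, while the upper values overlapped. *Got1*, the cytosolic partner, differed by -0.436 ± 0.136. Across the 35 strains *Slc25a12* had an r of 0.964 and *Got2* of 0.931 with the muscle mean, and with that mean as a covariate 0 of the 19 genes passed the unadjusted p in limma. The higher ones were *Slc25a51*, the mitochondrial NAD carrier, *Gpd2*, the mitochondrial glycerol-3-phosphate dehydrogenase, *Nampt*, the NAD salvage enzyme, and *Ldhb*, a lactate dehydrogenase subunit, with differences from 0.0948 to 0.225.

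Of 9 genes of superoxide and peroxide sources, oxidases and their partners, 8 had a lower mean on the low side. *Nox4*, an NADPH oxidase, differed by -0.342 ± 0.121 and *Xdh*, xanthine dehydrogenase, by -0.155 ± 0.0756. Both passed the unadjusted p only, where 4.42% of all probe sets were lower. With the muscle covariate 0 of the 9 passed it in limma, and 1 did after quantile normalization, after median centring or without BXD70. Of the 7 sirtuins, NAD-dependent deacylases, 0 passed the unadjusted p or the adjusted one in limma, and *Sirt3*, the mitochondrial one, differed by 0.0408 ± 0.0537.

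**Figure D3:**
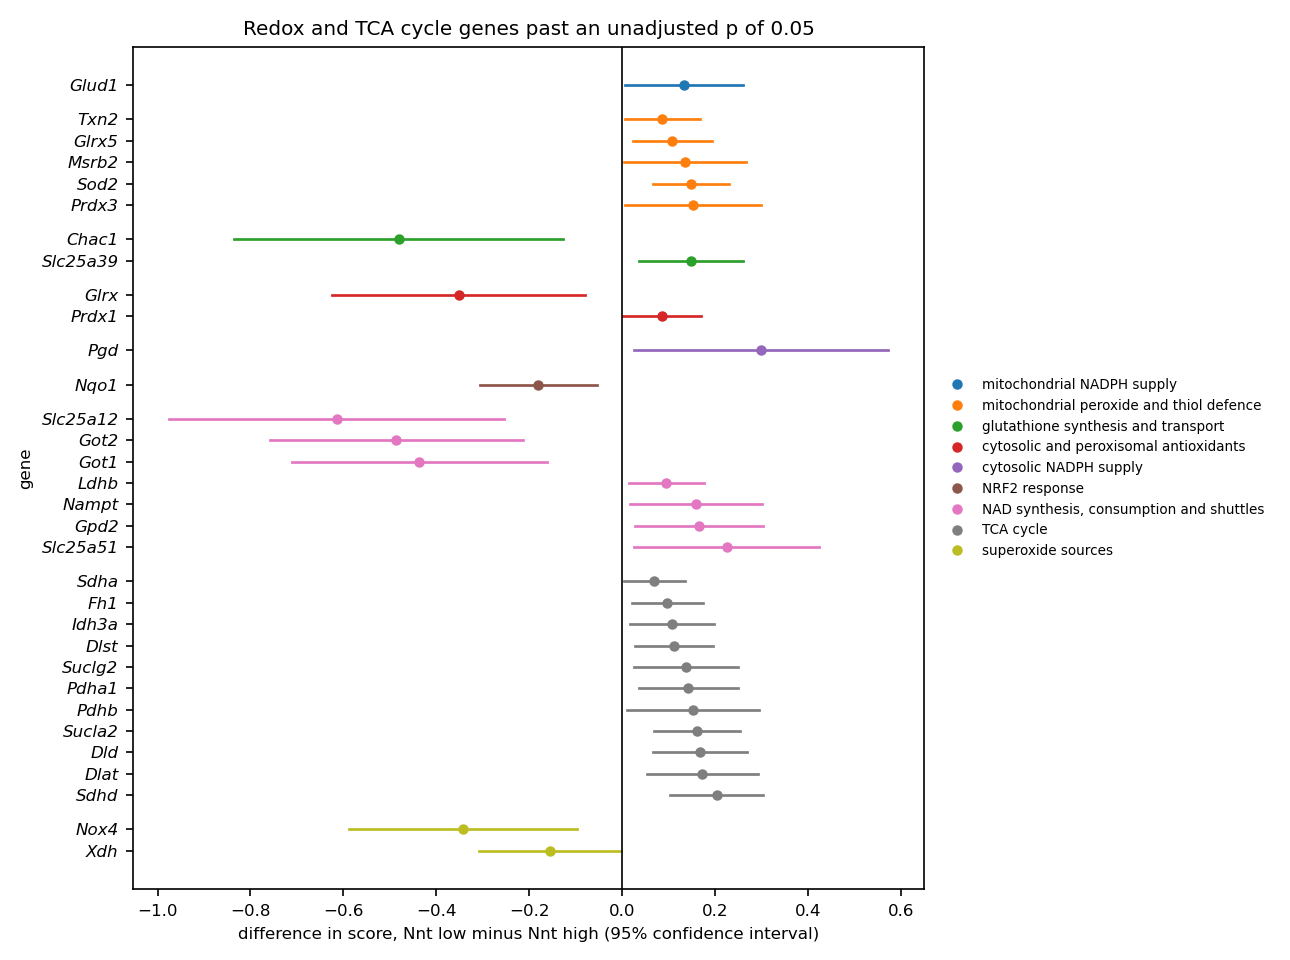
Difference in score, low minus high side, with its 95% confidence interval from limma, for the redox genes and the TCA cycle genes past an unadjusted p of 0.05. The 11 TCA cycle genes all lie right of 0, while *Slc25a12*, *Got2* and *Got1* lie left of it, and none passed the adjusted threshold.

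Next to the redox lists, the TCA cycle, which makes mitochondrial NADH, leaned to one side. All 20 genes had a higher mean on the low side, also after quantile normalization and after median centring, and 11 passed the unadjusted p (55%, where 3.68% of all probe sets were higher), with a list median of 0.0852. *Sdhd*, a membrane anchor of succinate dehydrogenase, had 12.99, 13.26 and 13.56 on the low side and 12.89, 13.10 and 13.31 on the high side, a difference of 0.203 ± 0.0494 (unadjusted p = 0.00021, adjusted p = 0.199). *Dld*, the dihydrolipoamide dehydrogenase shared by several dehydrogenase complexes, had 13.14, 13.42 and 13.69 on the low side and 13.02, 13.23 and 13.44 on the high side. *Sdhd* and *Dld* were picked after their values were seen, and the sides overlapped in both. With the muscle mean as a covariate 18 of the 20 kept a higher mean on the low side. With it 5 passed the unadjusted p, where 5.4% of all probe sets did. Quantile normalization without that covariate gave 7.

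In the list of mitochondrial and integrated stress genes, 3 were higher and 1 lower on the low side at the unadjusted p, where 3.68% and 4.42% of all probe sets were. After quantile normalization 2 were higher and 0 lower in limma, and after median centring 3 and 0. *Hspa9*, *Hspd1* and *Clpp*, 2 chaperones and a matrix protease, differed by 0.0905, 0.126 and 0.165, while *Hspe1*, *Lonp1* and *Yme1l1*, of similar roles, did not pass it. *Psat1*, a serine synthesis enzyme of the integrated stress response, differed by -0.239. With the muscle covariate 1 of the 15, *Clpp*, passed the unadjusted p, where 5.4% of all probe sets did. No gene of the list passed the adjusted threshold in either fit.

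Brown fat markers were bright on both sides, and 11 of the 13 thermogenesis genes had a higher mean on the low side. *Ucp1*, the uncoupling protein that defines BAT, had 14.82, 15.47 and 15.69 on the low side and 14.95, 15.26 and 15.67 on the high side, nearly the same span, with a difference of 0.132 ± 0.0756 (adjusted p = 0.698). Of 13 thermogenesis genes, *Dio2*, the thyroid hormone deiodinase, and *Prdm16*, a brown fat transcription factor, were higher on the low side by 0.653 ± 0.259 and 0.153 ± 0.0555 at an unadjusted p under 0.05. In limma 2 of the 13 were higher and 1 lower at that p, where 3.68% and 4.42% of all probe sets were. After quantile normalization or with the muscle covariate 1 was higher and 1 lower, and with that covariate 9 of the 13 had a higher mean. *Ucp2*, a carrier of the uncoupling protein family, had 9.02, 9.51 and 11.41 on the low side and 9.58, 10.88 and 11.27 on the high side, a difference of -0.758 ± 0.234. Every high-side strain exceeded the low-side median of *Ucp2*, although the highest strain of all was on the low side.

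Markers of other cells were checked as whole lists. All 8 white fat genes had a lower mean on the low side, and *Nnat* (-0.619 ± 0.215) and *Hoxc8* (-0.228 ± 0.109) passed the unadjusted p. The white fat list mean had a median of 9.87 on the low side and 10.17 on the high side, with *Retn* its brightest gene. All 8 macrophage genes were lower on the low side as well, 4 of them at the unadjusted p, where 4.42% of all probe sets were, among them *Mrc1* at -0.356 ± 0.114 and *C1qb* at -0.401 ± 0.145, and *Lyz2*, the brightest, at -0.174 ± 0.172. With the muscle covariate 2 macrophage genes and 1 white fat gene passed the unadjusted p, where 5.4% of all probe sets did. Of 7 endothelial genes 1, *Emcn*, passed it, and of the 4 blood and 9 lymphocyte genes found, 0 passed it in limma or after adjustment. The part of these cells in the redox differences was not tested.

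The 10 muscle genes were lower on the low side without exception, by a median of -0.792. Each passed in limma at an unadjusted p under 0.05, where 4.42% of all probe sets were lower. *Acta1*, skeletal actin and the brightest of them, had 12.05, 14.25 and 15.11 on the low side and 14.32, 14.59 and 15.31 on the high side. The low side spread over 3 units for *Acta1* and the high side over 1, with a difference of -0.737 ± 0.230. The low-side median lay below the lowest high-side strain, so most low-side strains lay under the whole high side.

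**Figure D4:**
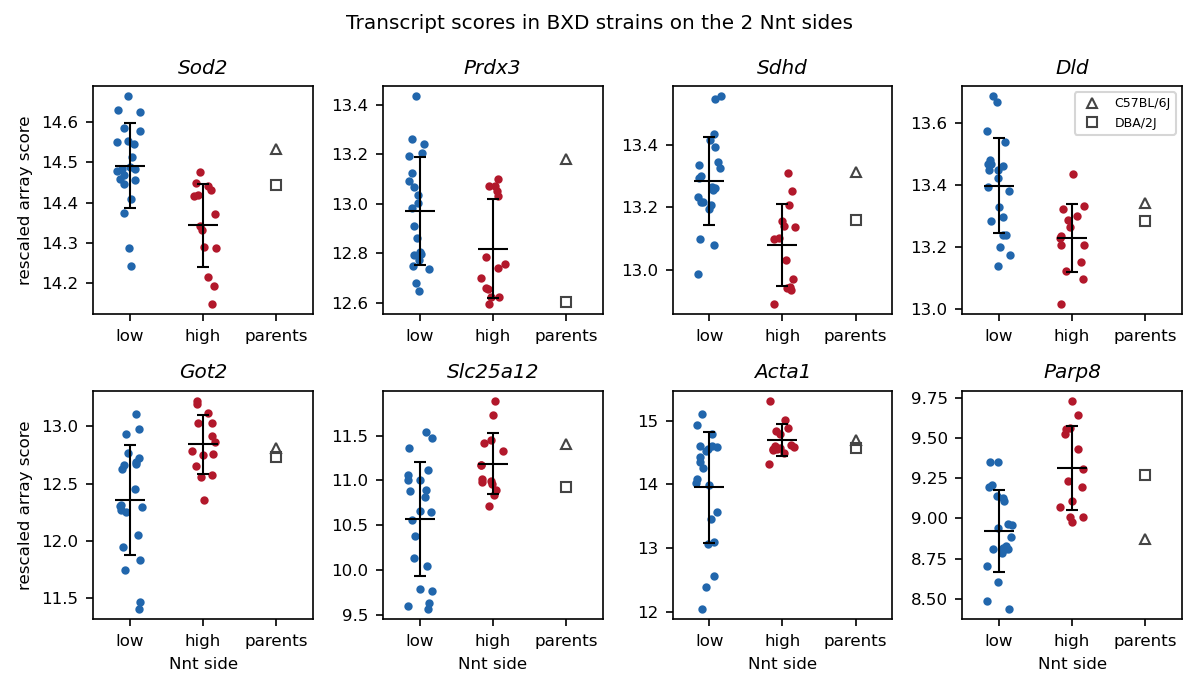
Scores of 8 genes in each BXD strain of the low side (n = 21) and high side (n = 14), with mean and SD as bars, and in both parents. The sides overlap in every panel, and in *Got2*, *Slc25a12* and *Acta1* most low-side strains lie under the whole high side.

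Since the sides gave no call and the *Nnt* values form a continuum, the *Nnt* score was also used as a continuous term, and this was made a result of its own after the data were seen. limma then called 596 of 41154 probe sets (1.45%), 486 (1.18%) in the direction of *Nnt* and 110 (0.267%) opposite to it. The opposite count was less steady, with 48 without BXD95, 60 without BXD90, 187 without BXD55 and 223 on probe sets above background. Among the lowest p-values in the direction of *Nnt* were *Twf2*, an actin-binding protein, with a slope of 0.793 ± 0.101 score units per unit of *Nnt* (adjusted p = 7.02e-05), *Myl3*, a myosin light chain, with 1.33 ± 0.172, and *Tnnc1*, the slow troponin C, with 1.57 ± 0.214. All 10 muscle list genes followed *Nnt*, and 329 of the 486 had an r above 0.7 with the muscle mean. *Nnt* itself had an r of 0.699 with that mean, and the share of all probe sets above 0.7 is not given here. The 329 thus only describe the called probe sets.

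The probe sets opposite to *Nnt* were not tested for a shared role, and a few are named after their values were seen. *Dbt* and *Hibadh* of branched-chain amino acid breakdown had slopes of -0.376 ± 0.0697 and -0.210 ± 0.0412, *Mrps5* of the mitochondrial ribosome -0.296 ± 0.0607, and *Opa1*, the fusion protein of the inner membrane, -0.200 ± 0.0428. In the TCA cycle *Dld*, *Suclg2*, *Sdhd* and *Dlst* passed the adjusted threshold opposite to *Nnt*, 4 of 20. Of the 110 redox genes 6 passed, namely *Slc25a12*, *Got1*, *Got2*, *Chac1* and *Nqo1* with *Nnt* and *Sod2* against it, the last with a slope of -0.173 ± 0.0428 (adjusted p = 0.0235).

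With the muscle mean as a covariate limma called 0 probe sets, with 2512 at an unadjusted p under 0.05 and a lowest adjusted p of 0.0530, and the t-test has no such form. The muscle mean shared 48.9% of the variance of *Nnt*, and slopes and errors changed in different ways in that fit. The slope of *Slc25a12* went from 0.982 ± 0.155 to 0.140 ± 0.0867, while that of *Mrps5* went from -0.296 ± 0.0607 to -0.331 ± 0.0857 and that of *Sdhd* from -0.226 ± 0.0537 to -0.230 ± 0.0761. Slopes opposite to *Nnt* also shrank, for *Hibadh* to -0.107 ± 0.0530, for *Dbt* to -0.235 ± 0.0929, for *Opa1* to -0.128 ± 0.0581 and for *Sod2* to -0.100 ± 0.0581. The part of muscle in the lost calls was not tested. With the 5 strains lowest in muscle left out together, limma called 3, *Cyfip2*, *Xpo4* and *A930018M24Rik*, all in the direction of *Nnt*.

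The 20 protein-coding genes around *Nnt* on chromosome 13, 10 on either side in RefSeq order (assembly GRCm38.p6), were then read, and 19 were found, 13 of them above background. Between the sides, 2 of the 19 passed the unadjusted p and 0 the adjusted one in limma. The unadjusted one was passed by 8.1% of all probe sets and 9.78% of those on chromosome 13, so the neighbours did not stand out by count in that fit. With the muscle mean as a covariate *Parp8*, *4833420G17Rik* and *Zfp131* passed the unadjusted p between the sides, where 5.4% of all probe sets did. For the *Nnt* level beside that covariate *Mrps30*, *Tmem267* and *Ccl28* passed the unadjusted p as well. In that fit 2512 of 41154 probe sets passed it, and 60 of the 1022 on chromosome 13. Both are a smaller share than among the neighbours. *Parp8*, a mono-ADP-ribosyltransferase 5 genes before *Nnt*, had 8.44, 8.89 and 9.35 on the low side and 8.98, 9.27 and 9.73 on the high side, a difference of -0.393 ± 0.0871 (unadjusted p = 6.33e-05, adjusted p = 0.130), and it followed the *Nnt* level (slope 0.502 ± 0.0853, adjusted p = 0.000373). *Zfp131*, a zinc finger gene 7 genes after *Nnt*, had 9.37, 10.04 and 10.44 on the low side and 9.26, 9.58 and 10.17 on the high side, a difference of 0.305 ± 0.112 (unadjusted p = 0.0098, adjusted p = 0.380). The sides overlapped widely in both. *Paip1* and *Fgf10*, the direct neighbours, differed by 0.0198 ± 0.0659 and -0.0936 ± 0.0636.

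With the muscle mean as a covariate, the 3 lowest p-values for the *Nnt* level among all 41154 probe sets fell on chromosome 13 close to *Nnt*, a pattern noticed after the values were seen. They belonged to *3110070M22Rik* (slope -0.758 ± 0.135, adjusted p = 0.0530), *Zfp131* (-0.774 ± 0.139, adjusted p = 0.0530) and *4833420G17Rik* (-1.10 ± 0.215, adjusted p = 0.157). Without the covariate the slope was -0.337 for *Zfp131* (adjusted p = 0.221) and -0.362 for *4833420G17Rik* (adjusted p = 0.535). For these genes the large slopes thus arose only with muscle in the fit, and the slope of *3110070M22Rik* without it is not given here. The 3 genes lie after *Nnt* on the same side, with 2, 6 and 1 protein-coding genes in between. With quantile normalization the first 2 passed the adjusted threshold in limma (adjusted p = 0.0421 for both), and with median centring neither did (0.0678). When each strain was left out in turn, *Zfp131* and *3110070M22Rik* passed it in 5 of 35 fits each and *4833420G17Rik* in 1, and their slopes were negative in all of them. The parents differed in these transcripts, with *Zfp131* at 10.25 in C57BL/6J and 9.26 in DBA/2J, *4833420G17Rik* at 9.25 and 8.26, and *3110070M22Rik*, with the smallest gap, at 9.126 and 8.618. The last gap is within the same 0.77.

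*Zfp131* was picked for its slope on *Nnt* beside muscle, so its spread over the sides restates that choice and is no test. Its values broke most widely between 9.76 in BXD95 and 10.01 in BXD79, and 15 strains lay above its own parental midpoint of 9.75, BXD95 among them by the smallest margin. Of these 15 strains 12 (80%) were on the low *Nnt* side, and of the 20 strains below it 9 (45%). Strain genotypes were not used here, so *Zfp131* stands for its transcript only, and whether the strains share a parental segment around *Nnt* was not tested.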

How the data were processed

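BAT arrays of 35 BXD strains and both parents were used. Per the labels, Affymetrix Expression Console made the values, and in the deposited table each is a score, an array rescaled by the authors to mean 8 and SD 2; summary method and build are not given in the sources used here. Of 41345 probe sets, 190 AFFX controls and the *Nnt* probe set were left out, and 41154 were tested on the scores as deposited with limma 3.58.1 (lmFit, eBayes; R 4.3.3), low minus high side, without covariates, Benjamini-Hochberg over all of them. Figures used matplotlib 3.10.9 in Python 3.11.15. The fit was tested on simulated data. The plan had assumed log2 values, and the score unit kept the same test.

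Of 217 listed genes 214 were found, each shown by its brightest probe set. Named genes were *Nnt*, up to 15 called probe sets per direction, 10 coding genes on either side of *Nnt*, redox genes past an unadjusted p of 0.05, and the 3 brightest of each list; others were chosen after their values were seen, as was the *Nnt* level as a result of its own. The members and lists were chosen with earlier results of these data known. Alternatives changed scaling, samples, covariates, the boundary, the threshold and the test.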

Additional observations from a re-analysis of the deposited data

How the results depend on the processing

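Between the sides, limma counts at an adjusted p under 0.05 were 0 in total, in each direction, in the redox lists and outside chromosome 13 (on another RefSeq chromosome; probe sets without one are not in that count). They were 0 under quantile normalization, median centring, without BXD70, with the muscle or first principal component covariate, without the 3 strains nearest the midpoint on either side, and at the stricter threshold of 0.01. Both parents included gave 8 calls (1 higher and 7 lower on the low side, 7 outside chromosome 13, 1 without a chromosome), and probe sets above background gave 13 (1 higher, 12 lower, 13 outside chromosome 13), where fewer probe sets are adjusted for. The widest gap as boundary gave 1 (*Gm5077*, lower, outside chromosome 13). The t-test gave 3360 unadjusted (1547 higher, 1813 lower, 22 redox, 2525 outside chromosome 13) and 1 adjusted (*Npr2*, lower, outside chromosome 13). The continuous *Nnt* level gave 596 (110 opposite, 486 with *Nnt*, 6 redox, 529 outside chromosome 13). The redox count at an unadjusted p of 0.05, added after seeing the data, was 21, and 8 with the muscle covariate. Leaving out 1 strain gave 0 to 14 calls in total, 0 to 2 higher, 0 to 12 lower, 0 redox and 0 to 12 outside chromosome 13. Calls appeared without BXD96 (14), BXD55 (9), BXD84 (9), BXD69 (8), BXD43 (6), BXD92 (4), BXD64 (1), BXD98 (1) and BXD103 (1).

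The number of low-side strains was 20 with quantile normalization, 22 with median centring and 30 with the widest gap, and the mean of all *Nnt* probe sets could not differ, as there was 1. For the *Nnt* level, alternatives were chosen after seeing the data, with 596 calls as reported: 527 to 779 under scaling, parents, BXD70, background and principal component settings, 421 to 721 with 1 strain left out (fewest without BXD95), 324 at an adjusted p of 0.01, 0 with the muscle covariate and 3 without the 5 strains lowest in muscle. With the muscle covariate and 1 strain left out, the adjusted p of the *Nnt* slope ran from 0.00973 to 0.171 for *Zfp131*, from 0.0038 to 0.171 for *3110070M22Rik* and from 0.0038 to 0.374 for *4833420G17Rik*. Of 168 named genes, 2 changed sign with quantile normalization, 3 with median centring, 14 with the muscle covariate (6 of them with an unadjusted p under 0.05 as reported), 12 with the widest gap and 7 with the principal component. Apart from the settings named here, the cause was not tested. Array number limits precision, and low scores near 7.94 cannot be told from background.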
